A study of Mus musculus with 2 samples.

Results

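The small leucine-rich proteoglycans are short secreted matrix proteins built around a row of leucine-rich repeats, and most of them carry chondroitin, dermatan or keratan sulfate chains. The 8 family members followed here were Dcn, Bgn, Lum, Fmod, Ogn, Prelp, Aspn and Podn. They were taken by gene symbol from every deposited comparison and are 8 of the 15181 distinct genes named there. All 8 were present in each of the 4 fibroblast subcluster tables, which held 15059 genes each, so that every member had a value in all 4 and the family had 32 values in total.

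Interstitial cells, the cells of the heart other than cardiomyocytes, were dissociated from ventricles of adult mice after myocardial infarction (MI), sorted for viability and captured on the 10x Chromium system. One library came from PostnMCM mice and 1 library from Yapfl/fl;Wwtr1fl/+;PostnMCM mice, which carry loxP sites around both Yap alleles and around 1 allele of Wwtr1, the gene for TAZ. PostnMCM places a Cre recombinase that needs tamoxifen under control of Postn, so recombination is limited to cells that switch on periostin, chiefly activated fibroblasts. Mice of both groups carried the R26-eGFP transgene and ate chow with tamoxifen at 0.4 g/kg from the time of MI. The labels place collection at day 6, and the study's methods place it a day later. The number of hearts behind each library is not given in the sources used here. With 1 library per group there was no replicate, no error and no test, and each value below describes these libraries alone. Numbers of cells and counts per cell are not listed in the tables, so no interval is given.

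Decorin, biglycan, lumican, fibromodulin, asporin and osteoglycin bind collagen and set how thick and how evenly spaced its fibrils become, and several of them also hold growth factors of the TGF-β family in the matrix. PRELP links collagen to the basement membrane through heparan sulfate, and podocan is a more distant relative known as a brake on smooth muscle growth. In a healing infarct the fibroblast is the main source of these proteins, and mice without decorin, biglycan or lumican form disordered collagen fibrils.

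Each table gives, for both libraries, the share of cells of a cluster in which the gene was counted. It also gives a log2 fold change, which is the log2 of the mean corrected count plus 1 in the Yapfl/fl;Wwtr1fl/+;PostnMCM library minus the same quantity in the control library. Positive values are therefore higher in the first of these. A difference of at least 0.5 in either direction was counted, and the same size was counted over all genes counted in 25% or more of the cells in either library of that subcluster, here called detected genes. The targeted transcripts were examined first. Yap1 was counted in 46.2%, 23.3%, 57.5% and 30.4% of control cells in subclusters 0, 3, 4 and 5 and in 56.2%, 43.5%, 40% and 47.6% of the other library's cells, with log2 fold changes between 0.04 and 0.31. Wwtr1 was counted in 81.4%, 93.3%, 80% and 100% of control cells and in 90.6%, 91.3%, 60% and 85.7% of the others, with log2 fold changes of 0.15, -0.30, -0.21 and -0.16. Yap1 was thus counted in fewer cells in subcluster 4 alone, and Wwtr1 in fewer in subclusters 3, 4 and 5. Since these transcripts were not lower throughout, the Yapfl/fl;Wwtr1fl/+;PostnMCM library is called the library labelled depleted below. The counts come from the 3′ end of transcripts, and whether they can see the excised exons was not tested.

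The study names these cells fibroblasts, and Col1a1, Col1a2 and Col3a1 were counted in 100% of cells of both libraries in all 4 subclusters. Tcf21, a marker of resident cardiac fibroblasts, was counted in at most 8.7% of cells in subclusters 0 and 3, in 35.0% and 20% in subcluster 4, and in 43.5% and 81.0% in subcluster 5 (control and library labelled depleted). The epicardial gene Wt1 was counted in 92.5% to 100% of cells in subclusters 0, 3 and 4. Subclusters 0, 3 and 4 thus combined collagen transcripts with epicardial markers, whereas subcluster 5 had the highest shares of Tcf21. The study describes subcluster 0 by IGF binding proteins, 3 by proliferation genes, 4 by matrifibrocyte markers and 5 by matrix and contractile genes. Subclusters 1 and 2 were not analysed here.

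The family divided by how widely its members were counted. Dcn and Bgn were counted in nearly every cell of all 4 subclusters, Prelp, Podn and Fmod in part of the cells, Lum and Ogn in part of the cells of subclusters 0, 3 and 4 and in 100% of those of subcluster 5, and Aspn was close to restricted to subcluster 5. In the control library, subcluster 5 had the highest share of Lum, Ogn, Prelp, Aspn and Podn. Fmod was the member whose control share was highest in subcluster 4, at 32.5%. Without replicates it cannot be said which neighbouring shares in these orders differ beyond the spread between animals.

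**Figure D1:**
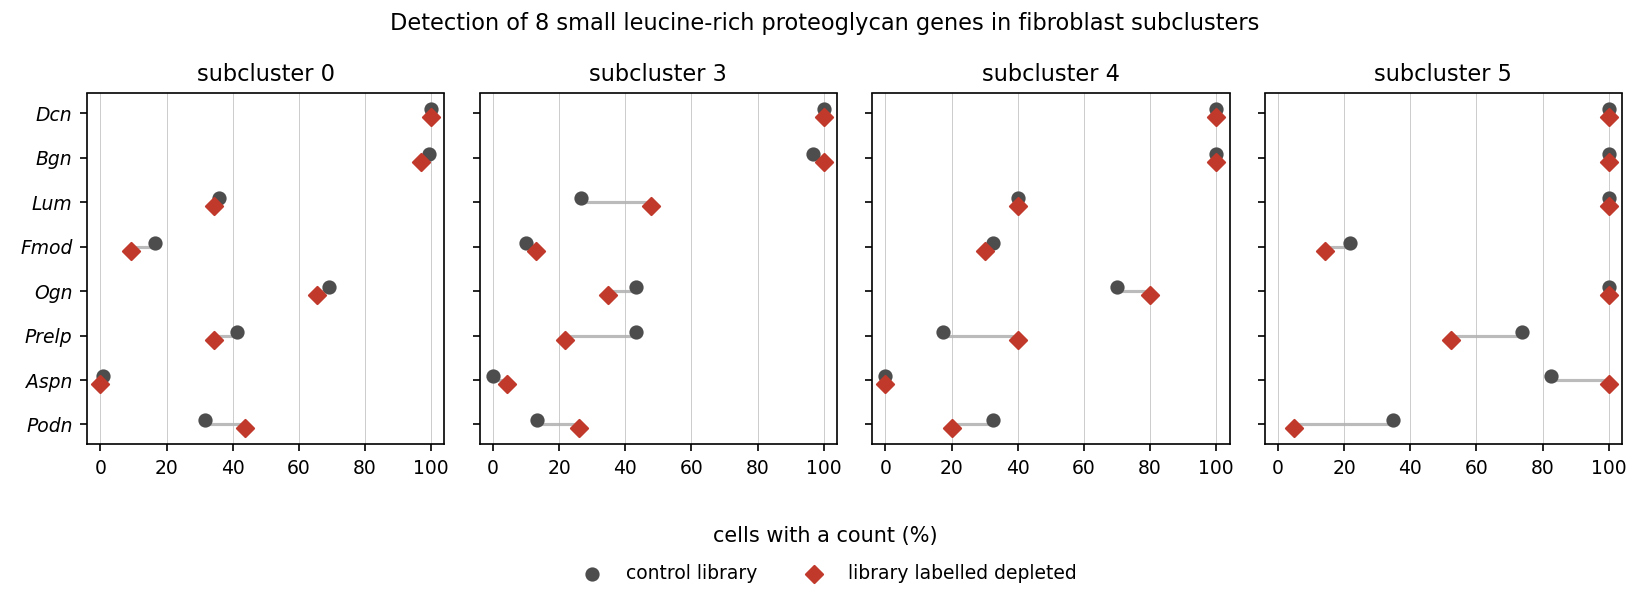
Percent of cells in which each of the 8 genes was counted (horizontal axis, 0 to 100%) in 4 fibroblast subclusters, for the control library (grey circles) and the library labelled depleted (red diamonds), 1 library each, with a grey line joining the values of a gene. Dcn and Bgn lie near 100% everywhere, Aspn is near 0% except in subcluster 5, and Podn in subcluster 5 has the widest gap, from 34.8% to 4.8%.

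Of the 34984 values of all detected genes in the 4 subclusters, 4.64% were higher by at least 0.5 in the library labelled depleted and 4.31% were lower. Across the 32 values of the members, 5 were higher by that size and 3 were lower, while 24 lay within it. Of these 8 values, 6 fell in subcluster 5 and 2 outside it, and 6 belonged to genes that passed the limit of 25% of cells in that subcluster, the exceptions being Aspn in subcluster 3 and Fmod in subcluster 5. At this size most of the differences lay in subcluster 5, and there they ran in both directions. At a size of 0.25, 6 of 17 values lay in subcluster 5, and by the log2 ratio of the shares 2 of 10 did, so that the majority in subcluster 5 holds for the deposited log2 fold change at 0.5 and not for these. The percent of all detected genes past these alternative limits was not computed. Among the 8 members, 3 were higher in subcluster 5 (Lum, Ogn, Aspn), beside 5.7% of the 8349 detected genes, and 3 were lower (Prelp, Podn, Fmod), beside 8.16% of them, though Fmod was itself not a detected gene there. The members' median log2 fold change in that subcluster was -0.09 and the median of the detected genes was -0.01, so both medians lay near 0.

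**Figure D2:**
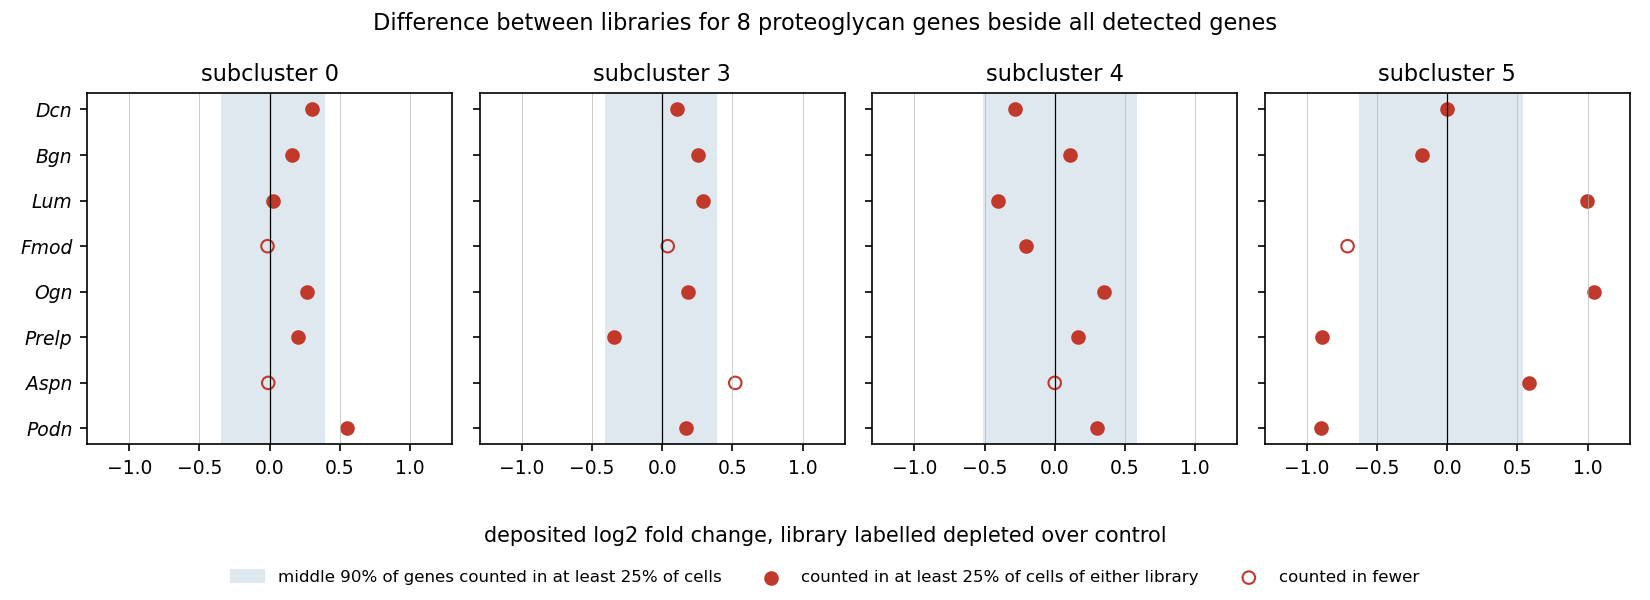
Deposited log2 fold change (library labelled depleted over control, horizontal axis) of the 8 genes in each fibroblast subcluster, with the middle 90% of detected genes as a grey band. Filled circles are genes counted in 25% or more of the cells in either library and open circles those counted in fewer. In subcluster 5, Lum, Ogn and Aspn lie to the right of the band and Prelp, Podn and Fmod to the left.

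Osteoglycin, a keratan sulfate proteoglycan that was first isolated from bone, had the largest positive difference of the family. Ogn was counted in 100% of cells of both libraries in subcluster 5, and its log2 fold change there was 1.05. Only 0.635% of detected genes had a value as high or higher, and Ogn ranked 53 from the top. Because the share was already 100%, this difference lay in the mean corrected count and not in how many cells carried the transcript. In subcluster 0 the share was 69.0% in the control library and 65.6% in the library labelled depleted, with a log2 fold change of 0.27. In subcluster 3 the shares were 43.3% and 34.8%, and the log2 fold change was 0.19. In subcluster 4 they were 70.0% and 80.0%, and the log2 fold change was 0.35. Ogn was thus the only member with a positive log2 fold change in all 4 subclusters, although in subclusters 0 and 3 fewer of the cells were counted as positive. The gain of 10 points in subcluster 4 equals the smallest share above 0, 10.0%, that any gene had there in the library labelled depleted.

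Lumican, a keratan sulfate proteoglycan of cornea and of soft connective tissue, followed closely in subcluster 5. Lum was counted in 100% of cells of both libraries, with a log2 fold change of 0.99, a value that 0.755% of detected genes reached. Outside subcluster 5 Lum was counted in a minority of cells. The shares were 35.9% and 34.4% in subcluster 0, where the log2 fold change was 0.03. In subcluster 3 they were 26.7% and 47.8%, a gain of 21.1 points, with a log2 fold change of 0.29. In subcluster 4 they were 40.0% in both libraries and the log2 fold change was -0.40. Lum therefore showed its difference as more positive cells in subcluster 3 and as a higher mean corrected count in subcluster 5, and the opposite sign in subcluster 4.

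Asporin, whose name comes from a run of aspartates near its amino terminus and which binds collagen and TGF-β, was counted in 82.6% of control cells and 100% of cells labelled depleted in subcluster 5. Its log2 fold change there was 0.58, which 3.78% of detected genes reached. Elsewhere Aspn was close to absent. It was counted in 0.7% and 0% of cells in subcluster 0 and was listed at 0 in both libraries of subcluster 4. In subcluster 3 the control library was listed at 0 and the library labelled depleted at 4.3%, the smallest share above 0 that any gene had there. The value of 0.52 in the table is then the log2 of the mean plus 1 in the library labelled depleted alone, and it corresponds to a mean of 0.435 corrected counts per cell, or 10.1 per positive cell. That difference passed the size of 0.5 but rests on a share of 4.3%.

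Among the 8 members, Aspn and Ogn are neighbours, and which other genes lie between them was not examined. In GRCm39, Aspn lies at chr13:49697609-49721057 and Ogn at chr13:49761349-49780412, both on the plus strand and 40.3 kb apart. The promoters of this pair are shown because both genes were higher in subcluster 5. Promoters were taken from RefSeq as the 250 bases before the start site, defined on GRCm38.p6, and were located in GRCm39 by a single exact match. Of the 8 members, 6 had a window, and Dcn and Lum had none. Each window was searched on both strands for the core of the TEAD site (GGAATG), TEAD being the DNA-binding partner of YAP and TAZ, for the AP-1 site TGANTCA and for the TATA box TATAAA. The promoters are printed without bases that GENCODE annotates as untranslated, so that the Ogn promoter below ends where the first exon begins. Capitals mark TATAAA matches on either strand, which overlap in Ogn.
Ogn promoter, plus strand, chr13:49761241-49761348: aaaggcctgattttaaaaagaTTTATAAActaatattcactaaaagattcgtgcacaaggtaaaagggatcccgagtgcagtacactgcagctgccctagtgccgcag
Aspn promoter, plus strand, chr13:49697669-49697918: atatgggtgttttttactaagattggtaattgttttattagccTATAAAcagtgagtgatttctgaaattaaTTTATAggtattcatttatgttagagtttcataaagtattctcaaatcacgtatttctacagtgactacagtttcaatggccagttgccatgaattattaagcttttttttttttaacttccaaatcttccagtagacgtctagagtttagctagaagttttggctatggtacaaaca
Ogn also held 1 match to the TEAD core, inside the untranslated first exon as GENCODE annotates it and before the RefSeq start site. That site is printed on its own, with capitals marking the match.
Ogn TEAD core, plus strand, chr13:49761393-49761422: tcaccccgagaaGGAATGttggcaaagatt
The Aspn window lies in the intron after a short first exon of the longest GENCODE transcript and directly before the exon at the RefSeq start. Both genes of the pair had TATAAA matches, which 12.4% of 32851 promoter windows of that length hold. The TEAD core is present in 12.6% of windows and the AP-1 site in 6.75%. These matches are letters in a window and no binding was measured.

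Prelp and podocan were on the other side in subcluster 5. Prelp was counted in 73.9% of control cells and 52.4% of cells labelled depleted, and its log2 fold change was -0.89, a value that 2.2% of detected genes reached or fell under. In subcluster 3 the shares were also lower in the library labelled depleted, 21.7% after 43.3% in the control, with a log2 fold change of -0.34. Subcluster 4 went the other way, with 17.5% and 40.0% of cells and a log2 fold change of 0.17. In subcluster 0 the shares were 41.4% and 34.4%, yet the log2 fold change was 0.20. Prelp was therefore lower on both measures in subclusters 3 and 5, higher on both in subcluster 4 and split in subcluster 0.

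Podn had the widest change in share of the family. In subcluster 5 it was counted in 34.8% of control cells and in 4.8% of cells labelled depleted, the smallest share above 0 that any gene had there in that library. The log2 fold change was -0.90, and 2.12% of detected genes had a value as low or lower. In subcluster 0 the direction was opposite, with 31.7% and 43.8% of cells and a log2 fold change of 0.55 that 1.93% of detected genes reached. In subcluster 3 the shares were 13.3% and 26.1% and the log2 fold change was 0.17. In subcluster 4 they were 32.5% and 20%, and the log2 fold change was 0.30. Podn was the only member past 0.5 in opposite directions in different subclusters, and whether the subclusters differ was not tested. Markers moved with Podn in subcluster 0 as well. Pdgfra was counted there in 38.6% and 71.9% of cells (log2 fold change 1.35) and Acta2 in 31.0% and 59.4% (2.22), and Angptl7 was at 1.32. Of the other myofibroblast markers, Tagln (0.68) and Postn (0.43) were positive and Cthrc1 (-0.29) was negative. The macrophage gene Lyz2 was at -1.83 and the neutrophil gene S100a8 at -3.96. Of the other macrophage markers, Cd68 (-0.66) and Csf1r (-0.34) were negative, while C1qa (0.53) and Adgre1 (0.14) were positive. Their part in the value of Podn was not tested.

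Fibromodulin, a keratan sulfate proteoglycan that competes with lumican for its site on collagen, was counted in a minority of cells throughout. Fmod was counted in 21.7% of control cells and 14.3% of cells labelled depleted in subcluster 5, with a log2 fold change of -0.71. It stayed under 25% of cells in both libraries there, so it is not among the detected genes of the background. In subcluster 0 its shares were 16.6% and 9.4%, a gap close to that in subcluster 5, but the log2 fold change was -0.02. In subcluster 3 they were 10.0% and 13.0% and the log2 fold change was 0.04. In subcluster 4 the shares were 32.5% and 30.0% and the log2 fold change was -0.21. Fmod thus passed 0.5 on the log2 scale in subcluster 5 alone, while its shares were lower by similar amounts in subclusters 0 and 5.

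Prelp and Fmod are also neighbours on a chromosome among the 8 members. Prelp lies on the minus strand at chr1:133837335-133857971 and Fmod on the plus strand at chr1:133964992-133976015, 107.0 kb apart in GRCm39. Their promoters are shown because both genes were lower in subcluster 5, opposite to the pair on chromosome 13. The Prelp window is intronic in a longer GENCODE transcript and ends at the exon that holds the RefSeq start, and the Fmod window ends at the base before the first exon.
Prelp promoter, minus strand, chr1:133849153-133849389: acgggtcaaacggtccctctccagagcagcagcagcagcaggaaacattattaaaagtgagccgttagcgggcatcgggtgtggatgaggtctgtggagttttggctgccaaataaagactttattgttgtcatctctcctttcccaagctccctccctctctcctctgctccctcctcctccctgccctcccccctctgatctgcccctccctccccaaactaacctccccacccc
Fmod promoter, plus strand, chr1:133964742-133964991: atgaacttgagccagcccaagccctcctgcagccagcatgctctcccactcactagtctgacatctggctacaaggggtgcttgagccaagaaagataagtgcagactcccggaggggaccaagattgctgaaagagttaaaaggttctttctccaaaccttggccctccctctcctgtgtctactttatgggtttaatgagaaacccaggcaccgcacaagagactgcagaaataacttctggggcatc
Neither window held a match to any of the 3 motifs, which says only that those letters are absent there. The windows of Bgn and Podn held none either. The remaining pair of neighbours, Dcn at chr10:97315275-97358155 and Lum at chr10:97400990-97408577, both on the plus strand and 42.8 kb apart, did not share a direction in subcluster 5, where Lum was at 0.99 and Dcn at -0.0049. Bgn (chrX:72527208-72539541, plus strand) and Podn (chr4:107871988-107889534, minus strand) have no family neighbour among the 8.

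**Figure D3:**
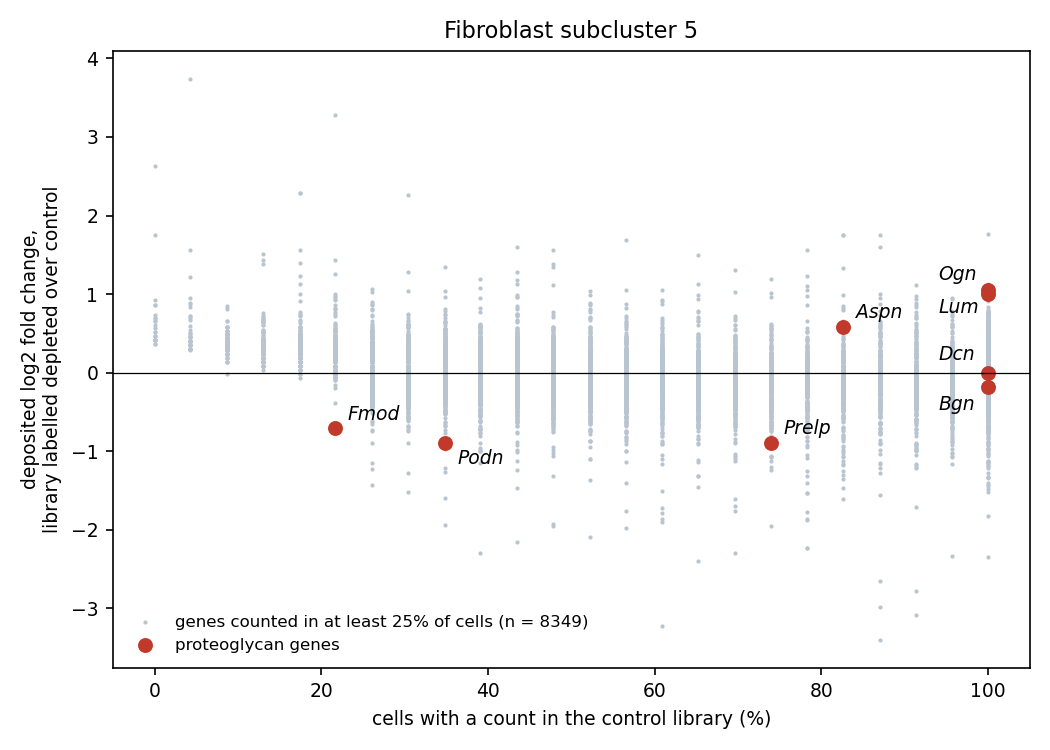
Fibroblast subcluster 5: percent of control cells in which a gene was counted (horizontal axis) against its deposited log2 fold change (vertical axis, library labelled depleted over control), for the 8349 detected genes (grey) and the 8 proteoglycan genes (red). Fmod, at 21.7% and -0.71, is drawn although it was counted in fewer cells. Ogn and Lum stand near 1 at a share of 100%, and Podn and Prelp near -0.9.

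Decorin and biglycan, the closely related pair that carries chondroitin or dermatan sulfate and binds TGF-β, were counted in nearly all cells, so their shares could not show a difference. Dcn was counted in 100% of cells of both libraries in every subcluster. Its log2 fold changes were 0.30, 0.11, -0.28 and -0.0049 in subclusters 0, 3, 4 and 5. Bgn was counted in 99.3% and 96.9% of cells in subcluster 0, in 96.7% and 100% in subcluster 3 and in 100% in subclusters 4 and 5. Its log2 fold changes in the same order were 0.16, 0.25, 0.11 and -0.18. Neither gene passed 0.5 in any subcluster, and the highest value, Dcn in subcluster 0, was reached by 8.78% of detected genes. These were the only members with no value past 0.5 in the subcluster tables.

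Outside subcluster 5 few members passed 0.5. In subcluster 0 only Podn was higher, where 2.49% of 8490 detected genes were, and no member was lower, where 1.61% were. In subcluster 3 only Aspn was higher, and it was not a detected gene there, so that 0 of the 6 detected members were higher, against 2.84% of 9015 detected genes, and 0 were lower, against 2.5%. In subcluster 4 no member passed in either direction, while 7.44% of 9130 detected genes were higher and 5.09% lower. The members' medians in subclusters 0, 3 and 4 were 0.18, 0.18 and 0.05, and those of the detected genes were 0.015, -0.0066 and 0.0337. Members with a positive value numbered 6, 7, 4 and 3 of 8 in subclusters 0, 3, 4 and 5, where 52.9%, 48.8%, 53.1% and 48.4% of detected genes were positive.

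Counted by share, with a difference of at least 10 points, 6 of the 32 values were higher and 4 lower, and 10 could hardly rise because both libraries were at 95% or more. In subcluster 0 Podn was higher, as were 16.8% of detected genes, and no member was lower, as were 13.9%. In subcluster 3 Lum and Podn were higher and Prelp lower, where 18.2% of detected genes were higher and 23.3% lower. In subcluster 4 Ogn and Prelp were higher and Podn lower, where 33.5% were higher and 24.8% lower. In subcluster 5 Aspn was higher and Prelp and Podn lower, where 29.7% were higher and 21.5% lower. These counts are near the shares found over all detected genes and single out no subcluster. Few distinct shares were possible in some libraries. In subcluster 4 the 15059 genes took 41 distinct shares in the control library and 11 in the library labelled depleted, and in subcluster 5 they took 24 and 22. Share and log2 fold change pointed in opposite directions in 6 of the 32 values, which were Bgn, Lum, Ogn and Prelp in subcluster 0, Ogn in subcluster 3 and Podn in subcluster 4.

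Other genes moved with the members in subcluster 5. Of the 6 epicardial markers, all had lower shares in the library labelled depleted there, and their summed share was 200% in the control library and 47.7% in the library labelled depleted. Wt1 alone went from 73.9% to 14.3% of cells, with a log2 fold change of -1.08. In subclusters 0, 3 and 4 the summed epicardial share was between 410.0% and 518.8% in both libraries. Tcf21 was higher in subcluster 5 (43.5% and 81.0%, log2 fold change 1.13), as were the myofibroblast genes Postn (87.0% and 100%, 1.0) and Acta2 (47.8% and 76.2%, 1.12), while Gsn was lower at -2.35. The other myofibroblast markers, Tagln and Cthrc1, were at 0.10 and -0.14. The cells of subcluster 5 from both libraries thus differed in epicardial and fibroblast markers together with the proteoglycan genes. The part of these markers in the differences of Lum, Ogn, Aspn, Prelp, Podn and Fmod was not tested. Neutrophil markers had lower summed shares in the library labelled depleted in all 4 subclusters, from 208.7% to 240.0% in the control library and from 103.1% to 133.3% in the other. In subcluster 5, however, S100a8, S100a9, Retnlg and Csf3r all had positive log2 fold changes, of 0.13, 0.10, 0.32 and 0.46, and their part was not tested either. T cell markers, of which 2 of 3 were listed, had a summed share of 13.0% and 57.2% in subcluster 5, and macrophage markers, all 5 listed, one of 195.6% and 142.9%. The shares of C1qa and Csf1r were higher in the library labelled depleted and those of the other macrophage markers lower. In log2 fold change, C1qa (1.05), Csf1r (0.37), Adgre1 (0.08) and Lyz2 (0.05) were positive in subcluster 5 and Cd68 (-0.28) was negative. The 4 mural markers had a summed share of 34.8% and 9.6% there. The part of these markers was not tested.

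The tables of the 18 main clusters list only genes past 0.25 in log2 fold change and a share of 25% in either library, so a gene that is missing there has no value. Members appeared in cluster 5, the fibroblasts, and in cluster 12, a macrophage or monocyte cluster, and 16 of the 18 tables list none. In cluster 5 Dcn was counted in 99.7% and 100% of cells with a log2 fold change of 0.51. Lum was counted in 29.9% and 40.1% with 0.86, which ranked 19 from the top of 605 listed genes. Ogn was counted in 52.3% and 50.3% with 0.56. All 3 listed members were higher in the library labelled depleted, where 43.3% of the 605 listed genes were. Bgn, Fmod, Prelp, Aspn and Podn were not listed in cluster 5.

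The value of Dcn in cluster 5, 0.51, lay above its value in each of the 4 subclusters, the highest of which was 0.30. By the study's account the libraries contributed unequally to the subclusters. Cluster 5 also contains subclusters 1 and 2, and the cluster and its subclusters were normalized separately. A change in which subclusters the cells belonged to and a change within them cannot be told apart here.

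In cluster 12 Dcn was counted in 30.2% of control cells and in 6.3% of cells labelled depleted, with a log2 fold change of -0.45, which ranked 48 from the bottom of 650 listed genes, of which 53.1% were lower. Decorin in the heart is chiefly a product of fibroblasts. Col3a1, a fibroblast collagen, was counted in the same cluster in 30.2% and 19.0% of cells with a log2 fold change of -0.35. It was listed as lower in 9 of the 17 clusters other than cluster 5, with control shares of 26.6% to 50%. Gsn, also used here as a fibroblast marker, was higher in clusters 13 (0.28) and 18 (0.51) and lower in clusters 17 (-0.36) and 5 (-0.77). It was counted in 81.8% to 90.9% of cells of clusters 17 and 18, so it was not limited to fibroblasts. Mgp, a further matrix gene, was listed as lower in clusters 3, 8, 9, 11, 13, 15, 17 and 18 (-2.52 to -0.31). In cluster 5 Mgp was higher (0.79). Sparc was listed as lower in clusters 10, 15 and 18 (-0.63 to -0.30). Dcn and Col3a1 were thus both counted in fewer cells of cluster 12 in the library labelled depleted, whereas in cluster 5 both were higher (Col3a1 at 0.33). Dcn has no value in the other clusters. The part of free fibroblast RNA in these shares was not tested, and the depth of the cells of each cluster and library is not listed.

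The wider family and its partners gave a background for the 8 genes. Of 9 other family genes, 3 were listed, Podnl1, Ecm2 and Tsku, and only Ecm2 and Tsku reached 25% of cells, both in subcluster 5. Ecm2, a relative of decorin, was counted in 65.2% and 61.9% of cells there, with a log2 fold change of 0.18. Tsku, which encodes tsukushi, was counted in 52.2% and 28.6%, with a log2 fold change of -0.49. Neither passed 0.5.

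The enzymes that build and sulfate the glycosaminoglycan chains of these proteins had counts near the background. Of 33 such genes 31 were listed, and over the 4 subclusters 4 of 82 detected values were higher and 6 lower, where 4.64% of the values of all detected genes were higher and 4.31% lower. In subcluster 5 the enzymes numbered 3 lower of 23, beside 8.16% of all detected genes. Their medians were 0.0013, -0.07, 0.03 and -0.08 in subclusters 0, 3, 4 and 5. B3gat3, which finishes the linker that joins a chain to its protein, was counted in 57.9% and 37.5% of cells in subcluster 0, with a log2 fold change of -0.53. Chpf, a chondroitin polymerizing factor, had its lowest value in subcluster 5 (82.6% and 71.4%, -0.69), where Chst12, a chondroitin sulfotransferase, was at -0.52. B4galt1, a galactosyltransferase, was at 0.53 in subcluster 0 and 0.50 in subcluster 5.

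The collagens that the proteoglycans bind had their lowest median, -0.42, in subcluster 5, where 4 of 12 detected collagen genes were lower, beside 8.16% of all detected genes, and 0 were higher. In subclusters 0 and 4 the split was 3 higher and 0 lower of 11, beside 2.49% and 7.44% of detected genes higher. In subcluster 3 it was 1 and 1 of 11, beside 2.84% of detected genes higher and 2.5% lower. Col5a3, a minor chain of the fibril-nucleating type V collagen, was at 0.78, 0.59, 1.43 and -1.61 in subclusters 0, 3, 4 and 5. Col6a3, a chain of the beaded microfibrils that biglycan and decorin bind, was counted in 100% and 85.7% of cells in subcluster 5, with a log2 fold change of -1.53. Col6a1 was at 0.65, 0.12, 1.34 and -0.50 and Col6a2 at 0.55, 0.21, 1.18 and -0.36 in the same order. The main fibrillar chains Col1a1, Col1a2 and Col3a1 were at -0.12, 0.10 and 0.10 in subcluster 5, and Col6a1 and Col6a2 did not pass 0.5 there.

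The list of proteases known to cut these proteins also holds Pcolce, which is not itself a protease. It had a median of -0.62 in subcluster 5, the lowest of the lists, with 5 of 8 detected genes lower, beside 8.16% of all detected genes, and 0 higher. In subcluster 0 the list went the other way, with 3 of 9 detected genes higher, beside 2.49% of all detected genes, and 0 lower. Adamts5, an aggrecanase that also cuts biglycan, was at -1.40 there, Adamts4 at -0.74 and Mmp2, a gelatinase, at -0.69. Bmp1, which trims the propeptide of biglycan, was at 0.63, 0.72, 0.79 and -0.13 in subclusters 0, 3, 4 and 5. Over all 4 subclusters 5 of 35 values of this list were higher, beside 4.64% of all detected values, and 8 lower, beside 4.31%.

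Among 20 receptors and growth factors that bind the family, 3 of 57 detected values were higher, beside 4.64% of all detected values, and 8 lower, beside 4.31%, with medians of 0.11, 0.11, -0.07 and -0.19. In subcluster 5 the receptors and factors numbered 4 lower of 13, beside 8.16% of all detected genes, and 0 higher. Lrp1, the endocytic receptor for decorin, was counted in 100% of cells of both libraries in subcluster 5, with a log2 fold change of -1.18. Tgfbr3, betaglycan, was counted there in 78.3% and 38.1% of cells, with -0.71. Tgfb2 was at 1.34 in subcluster 4 (17.5% and 60% of cells) and Tgfb1 at -0.77 in the same subcluster (60% and 20%).

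Of the other matrix proteoglycans, 3 of 37 detected values were higher, beside 4.64% of all detected values, and 9 lower, beside 4.31%, with medians of -0.13, -0.16, -0.03 and -0.45. In subcluster 4 they numbered 1 higher and 1 lower of 9, beside 7.44% and 5.09% of all detected genes. In subcluster 5 they numbered 4 lower of 9, beside 8.16% of all detected genes, and 2 higher, beside 5.7%. Gpc3, a membrane-anchored heparan sulfate proteoglycan, was at -1.11, -0.86, -0.51 and -2.30, and in subcluster 5 it was counted in 69.6% and 4.8% of cells. Vcan, the large hyaluronan-binding proteoglycan of provisional matrix, was at -0.53, -0.41, 0.84 and -0.92. Cd44, a hyaluronan receptor, was at -0.85 in subcluster 5. Sdc3, a syndecan, was the exception among the named genes there, with 52.2% and 100% of cells and 0.86. The detected genes of this list, which includes hyaluronan partners, thus had lower medians than all 8 small proteoglycans in each of the 4 subclusters, and that difference was not tested.

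**Figure D4:**
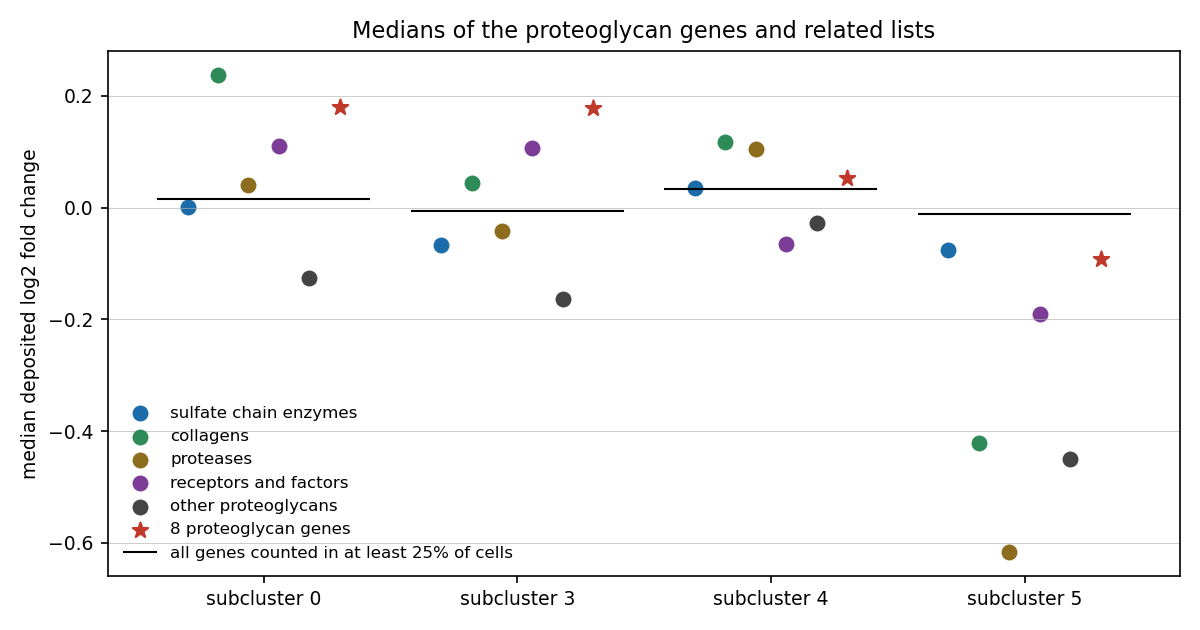
Median deposited log2 fold change (vertical axis, library labelled depleted over control) in each fibroblast subcluster for the 8 proteoglycan genes (red stars, all 8) and for the detected genes of 5 related lists (coloured circles), with the median of all detected genes as a black line. In subcluster 5 the collagens (-0.42), other proteoglycans (-0.45) and proteases with Pcolce (-0.62) lie below the 8 genes (-0.09).

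The genes with the most similar pattern of shares over the 8 measurements (4 subclusters in 2 libraries) were found by the root mean square difference in points. For Aspn the nearest was Ebf1, a transcription factor of mesenchymal cells, at 5.02 points, followed by Lrrc17 at 7.54. For Podn it was Adamts15, a secreted protease, at 5.68 points, with log2 fold changes of 0.51, 0.59, -0.25 and -1.21 in subclusters 0, 3, 4 and 5. The next for Podn was Chm at 7.03. For Prelp, Fam171a1 (6.84 points) and Col12a1 (6.87 points) were nearest, and for Fmod, LOC118567716 (3.28 points) and Ackr3 (3.36 points). No gene came within 5 points of Lum, Ogn, Prelp, Aspn or Podn. Lum was the most isolated, with Pdgfrb at 13.7 points and Glipr2 at 13.8, followed by Ogn, with Medag at 9.35 points and Ltbp4 at 10.4. Dcn and Bgn had 699 and 717 genes within 5 points, since any gene counted in nearly all cells lies there, with Actb and Actg1 at 0 points from Dcn and Ctsz and Cdk4 at 0.247 and 0.495 from Bgn.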

How the data were processed

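Tables of 18 clusters and 4 fibroblast subclusters of 2 droplet libraries were used. The authors aligned reads with Cell Ranger 6.1.1 to GRCm39 with reporter sequences added, normalized counts with SCTransform in Seurat, clustered the cells, and clustered the fibroblasts again. The deposited fraction of cells with a corrected count above 0 was printed as a percent. The deposited log2 fold change is the difference of log2(mean corrected count + 1). The p-values the authors computed over cells were not used, since cells are not replicates. No doublet caller is named in the study's methods, and cell barcodes were not analysed here.

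Differences of 0.5 (log2) or 10 points were counted for the members and, as background, for all genes counted in 25% or more of the cells in either library. All 8 members and the 2 targeted genes were named, with at most 4 genes per list (largest mean size over the 4 subclusters) and the 2 nearest share profiles per member. Marker genes, Col3a1, Mgp, Sparc and the other family genes were named after their values were seen. The members, lists and sizes were chosen with earlier results of these data known. Scripts ran in Python 3.11.15 with pandas 2.3.3 and numpy 2.4.6 and were tested on simulated data. Positions are from GENCODE on GRCm39, and promoters are from RefSeq.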

Additional observations from a re-analysis of the deposited data

Results flagged for a closer look

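Podn was the one member whose values passed 0.5 in opposite directions: its deposited log2 fold change was 0.55 in fibroblast subcluster 0 (31.7% of control cells and 43.8% of cells labelled depleted) and -0.90 in subcluster 5 (34.8% and 4.8%). With 1 library per group each subcluster contributes a single value, and the difference between the subclusters was not tested.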

How the results depend on the processing

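Counting members at 0.25 in place of 0.5 gave 11 higher and 6 lower values (5 and 3 at 0.5), and at 1 it gave 1 and 0. Without subcluster 5, an alternative chosen after seeing the data, 2 were higher and 0 lower, and the values lower by at least 10 points in share numbered 2 in place of 4. The log2 ratio of shares gave 6 lower values, and under it Lum and Ogn in subcluster 5 came to 0.0, Prelp to -0.49, Aspn to 0.27 and Podn in subcluster 0 to 0.45; Lum and Ogn were at 100% in both libraries, and the cause was not tested for the others. Centring on the median of detected genes left all 8 values past 0.5. Leaving out values with a library listed at 0, also chosen after seeing the data, left 4 higher and 3 lower. A limit of 20 points gave 2 higher shares in place of 6, and 5 points gave 8 lower in place of 4. In the cluster tables the 1 lower listing, Dcn in cluster 12, became 0 at a size of 0.5 and 0 at 50% of cells, and 2 listings, that one and Ogn in cluster 5, were lower by the direction of the shares. The related lists had 22 values higher and 36 lower at 0.5 and 54 and 64 at 0.25. Over all listed genes, 2.55%, 3.41%, 7.92% and 8.05% were past 0.5 in subclusters 0, 3, 4 and 5, in place of 4.1%, 5.34%, 12.5% and 13.9% of detected genes. Of the 8 subcluster values past 0.5, Lum and Ogn came to 0.0 and the other 6 kept their sign under the ratio of shares, and all 8 did under centring, which was not run for the cluster tables. No paired analysis was possible because there was only 1 library of each genotype. Numbers of cells and counts per cell are not listed, and the steps between possible shares were widest, 10.0%, in the library labelled depleted of subcluster 4.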
